A study of Oryctolagus cuniculus with 12 samples.

Results

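The insulin-like growth factor (IGF) family was followed in rabbit conjunctiva after trabeculectomy as 10 listed genes, the ligands IGF1 and IGF2, the receptors IGF1R and IGF2R and the binding proteins IGFBP2 to IGFBP7. Members were taken from the gene table by their exact name. Of the 10 names, 8 had a row among the 20566 genes of the table, all 8 held enough counts to be tested, and IGF2 and IGFBP3 are not analysed here. Trabeculectomy is a glaucoma operation that lets aqueous humor drain under the conjunctiva, where it raises a filtering bleb. The animals were female rabbits of the Japanese White strain, and 12 libraries of conjunctival RNA were sequenced. Unoperated conjunctiva of the left eye made up the control group (cont, n = 3), and bleb conjunctiva of the right eye made up TL-3h (3 hours after surgery), TL-3d (3 days) and TL-14d (14 days), with n = 3 each. Every operated eye was treated with mitomycin C, an antiproliferative drug, and the paper's account of the operation also names a betamethasone injection under the conjunctiva, so that the surgery, both drugs and the side of the body cannot be told apart in any comparison with cont. The age of these animals is not given in the labels, and neither is the animal or the collection time of each control eye. Each p-value therefore measures the spread between these libraries.

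IGF1 is a growth factor that fibroblasts and other stromal cells make locally, among other sources, and in the skin and the ocular surface it is known for roles in wound repair. It signals through IGF1R, a receptor tyrosine kinase, whereas IGF2R binds IGF2 and carries it to lysosomes for degradation. The binding proteins hold IGFs outside cells, prolong their life in tissue and limit or deliver them to the receptors, and proteases such as PAPPA release the ligand by cutting IGFBP4 and IGFBP5.

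On the OryCun2.0 assembly of the gene table, IGF1 (gene 100008668) lay on chromosome 4 at 81673597 to 81750387 on the minus strand and had 7 transcript models. IGF1R (gene 100144342) had 3 models and was on unplaced sequence, at 214221441 to 214478361 of the joined unplaced pieces. IGF2R (gene 100009573) was on chromosome 12 at 149773362 to 149862350. Among the binding proteins, IGFBP2 (gene 100348647; chromosome 7, 158055670 to 158081810, plus strand) and IGFBP5 (gene 100348897; chromosome 7, 158089205 to 158109942, minus strand) stood tail to tail, 7394 bases apart with 0 genes of the table between them. IGFBP4 (gene 100337926) was on chromosome 19 at 41584616 to 41595080, IGFBP6 (gene 100355364) on chromosome 4 at 36972294 to 36975949, and IGFBP7 (gene 103350795) on chromosome 15 at 91986677 to 91995076. The IGFBP7 model held a transcript of only 589 bases, which bears on its length-corrected level.

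Total estimated counts per library ran from 27111348 to 38591425. Member counts ran from 241 for IGF1 in the lowest library to 146243 for IGFBP5 in the highest, and a count of 3 corresponded to 0.0712 to 0.124 CPM (counts scaled to a common library size), so that no member was near the limit of detection in any library. Counts were fractional in part, which happens when a read is shared between placements, in every library for IGFBP5 and IGFBP7 and in none for IGF1. CPM below are adjusted with trimmed-mean (TMM) factors, which were 0.77 to 0.78 in TL-3h and 1.03 to 1.13 elsewhere. Conjunctival epithelium was represented by the keratins KRT4 and KRT5 in every group, and the summed CPM of its 4 measured markers was 3710.1 to 7912.5 in cont, 3900.5 to 6367.9 in TL-3h, 5961.6 to 15900.6 in TL-3d and 8073.8 to 12346.3 in TL-14d. Libraries of 1 group differed in stromal RNA. The summed CPM of 6 fibroblast genes (PDGFRA, DCN, LUM, COL1A1, COL1A2 and COL3A1) was 12161.3, 35466.2 and 76286.5 in the 3 cont libraries and 1328.4, 11713.3 and 64684.6 in TL-3d, against 105042.3 to 125552.6 in TL-3h and 11014.1 to 57032.2 in TL-14d, and none of the 6 passed the test against cont at any time. In such bulk tissue, fewer cells of a type and less RNA per cell cannot be told apart.

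Levels between genes were compared per length, as the deposited FPKM (fragments scaled to transcript length and depth). Binding protein transcripts stood far above ligand and receptor transcripts in unoperated conjunctiva. Mean FPKM in cont was 493.2 ± 61.61 (SD, n = 3) for IGFBP5, 279.8 ± 211.4 for IGFBP6, 235.9 ± 87.98 for IGFBP2, 145.6 ± 143.5 for IGFBP4 and 62.04 ± 22.54 for IGFBP7. The receptors IGF1R and IGF2R followed at 17.96 ± 1.893 and 16.96 ± 2.783 FPKM, and IGF1 was lowest at 4.155 ± 4.708 FPKM. Neighbours in this order had overlapping libraries except IGFBP7 over IGF1R and IGF2R over IGF1. The order was led by IGFBP6 in TL-3h, at 405.3 ± 120.6 FPKM against 212.2 ± 30.7 FPKM for IGFBP5, with no overlap between their libraries. IGFBP7 came first in TL-3d at 201.6 ± 15.27 FPKM and in TL-14d at 429.0 ± 409.5 FPKM, in both overlapping with IGFBP5. IGF1 was the lowest of the 8 in cont, TL-3d and TL-14d, whereas at 3 hours IGF1, IGF2R and IGF1R were level, at 6.698 ± 1.61, 6.673 ± 0.5507 and 6.203 ± 2.349 FPKM.

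**Figure D1:**
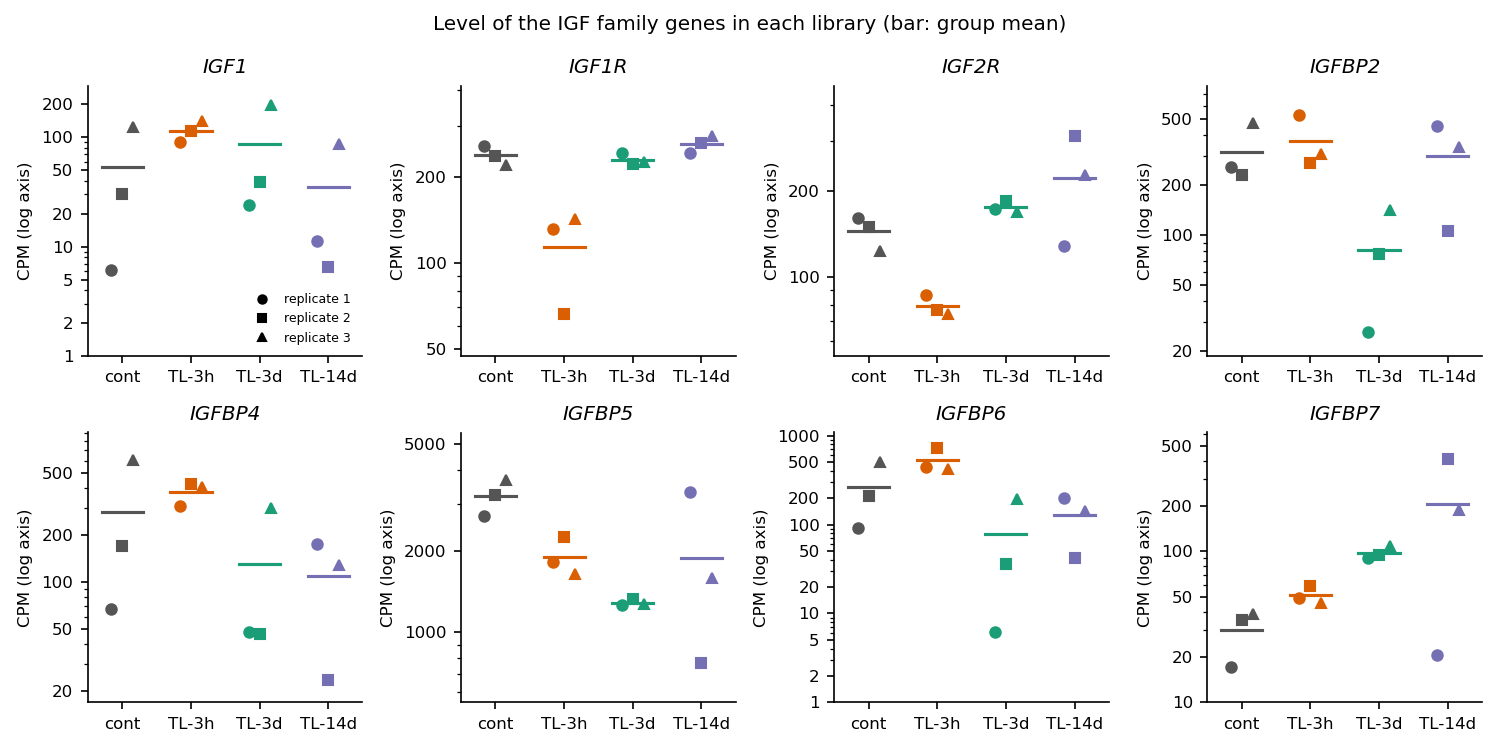
Level of each of the 8 IGF family genes in 12 libraries, in CPM on a log axis. Points are libraries (circle, square and triangle for replicates 1, 2 and 3), and bars are group means. The IGF1R and IGF2R points of TL-3h lie below all other groups, at 66.3 to 142.1 and 74.27 to 86.83 CPM, whereas the IGF1 points of cont spread from 6.1 to 122.9 CPM.

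To find which members changed soon after surgery, TL-3h was compared with cont by edgeR's quasi-likelihood test, fitted over all 14835 genes tested in all 12 libraries, with q the Benjamini-Hochberg adjusted p and a threshold of 0.05. Of the 8 members, 2 passed, IGF1R and IGF2R, and both fell. Over all genes tested, 45.4% passed in this comparison and 22.2% passed as lower, so that 2 of 8, both lower, is close to the background. The median log2 fold change was 0.32 over the members and 0.02 over all genes, and the members' median was 0.02 without cont replicate 1, 0.10 without cont replicate 2 and 0.73 without cont replicate 3. Libraries of TL-3h and cont did not overlap for 4 of 8 members, 3 lower and 1 higher, beside 57.3% of all genes (28.3% lower and 28.9% higher). With scaling by library size alone the median of all genes moved from 0.02 to -0.47, that of the members turned to -0.14, and the share of rises among the called genes went from 51.0% to 25.0%.

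IGF1R, the receptor that carries the IGF1 signal, stood at 255.8, 235.7 and 220.0 CPM in cont and at 131.3, 66.3 and 142.1 CPM in TL-3h. Every operated library lay below every control library. The fall was 2.09-fold (log2 -1.07, SE 0.24, edgeR q = 0.00472), and it passed the threshold under all 20 alternative settings, with log2 values of -1.57 to -0.85. IGF2R, the clearance receptor, gave 161.2, 149.7 and 123.7 CPM in cont and 86.83, 76.88 and 74.27 CPM in TL-3h, again without overlap. It fell 1.83-fold (log2 -0.87, SE 0.26, edgeR q = 0.0204). This call was lost without cont replicate 1 (edgeR q = 0.0663), without cont replicate 2 (edgeR q = 0.0557) and without TL-3h replicate 3 (edgeR q = 0.0544), in each case with the receptor still lower. Neutrophil markers were high in the same TL-3h libraries, with a summed CPM of 993.3 to 2663.2 against 3.275 to 78.58 in cont and 5 of 5 genes higher past the threshold. The fibroblast sum (105042.3 to 125552.6 against 12161.3 to 76286.5 CPM) and the endothelium and Schwann cell sums were also higher without overlap. The corneal epithelium and skeletal muscle sums were lower without overlap. CD68, EPCAM, MBP, PECAM1 and CDH5 were also higher past the threshold. The part of any of these cell types in the receptor values was not tested.

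IGF1 itself was at 6.1, 30.32 and 122.9 CPM in cont and at 89.68, 114.7 and 141.6 CPM in TL-3h. Its highest control library lay inside the TL-3h range, and the control libraries spanned 20.15-fold, against 1.579-fold in TL-3h. The log2 fold change was 1.12 with an SE of 1.19 (edgeR q = 0.48), and it was 2.62 without cont replicate 3 and 0.59 without cont replicate 1, with no call in either. In each of cont, TL-3d and TL-14d the libraries took the same order for IGF1 as for the fibroblast sum, and in TL-3h they did not. The same held for the summed CPM of 5 endothelium genes, at 63.7, 123.4 and 275.3 in cont. The part of either cell type in the IGF1 values was not tested.

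The binding proteins did not pass the test at 3 hours. IGFBP5, with the highest mean FPKM in cont, a protein that binds matrix and heparin, was at 2695.9, 3225.0 and 3668.2 CPM in cont and at 1815.4, 2262.9 and 1642.2 CPM in TL-3h. These libraries did not overlap, yet the log2 value of -0.75 (SE 0.42) gave an edgeR q of 0.172 in the fit over all 12 libraries. The q was 0.0396 without TL-14d replicate 1 and 0.0474 without TL-14d replicate 2, which are libraries outside this comparison that enter its estimate of the spread. It was 0.0302 with the libraries of these 2 groups fitted alone and 0.0299 with scaling by library size alone (log2 -1.24), so that IGFBP5 passed in 4 of 20 alternatives. IGFBP6, which prefers IGF2 to IGF1, ran from 91.71 to 500.1 CPM in cont and from 418.4 to 722.7 CPM in TL-3h (log2 0.99, SE 1.02, edgeR q = 0.467). IGFBP4, an inhibitor of IGF action, ran from 67.21 to 607.6 CPM in cont and from 309.4 to 426.1 CPM in TL-3h (log2 0.43, SE 0.96, edgeR q = 0.745). IGFBP2 ran from 228.2 to 468.3 CPM in cont and from 269.1 to 524.3 CPM in TL-3h (log2 0.21, SE 0.63, edgeR q = 0.815). With scaling by library size alone the values of IGFBP2 and IGFBP4 changed sign, to -0.27 and -0.02. IGFBP7, a secreted relative with low affinity for IGFs that is known from vessels and stroma, was at 17.25, 35.32 and 38.55 CPM in cont and at 49.2, 58.83 and 45.7 CPM in TL-3h, higher without overlap (log2 0.75, SE 0.73, edgeR q = 0.437). Of the 5 endothelium genes 2 were higher past the threshold at 3 hours (PECAM1 and CDH5), while VWF (log2 0.87, edgeR q = 0.44), KDR (log2 -0.82, edgeR q = 0.396) and TEK (log2 -0.35, edgeR q = 0.733) did not pass. Their summed CPM was 63.7 to 275.3 in cont and 605.6 to 1211.2 in TL-3h, and its part in the IGFBP7 value was not tested.

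**Figure D2:**
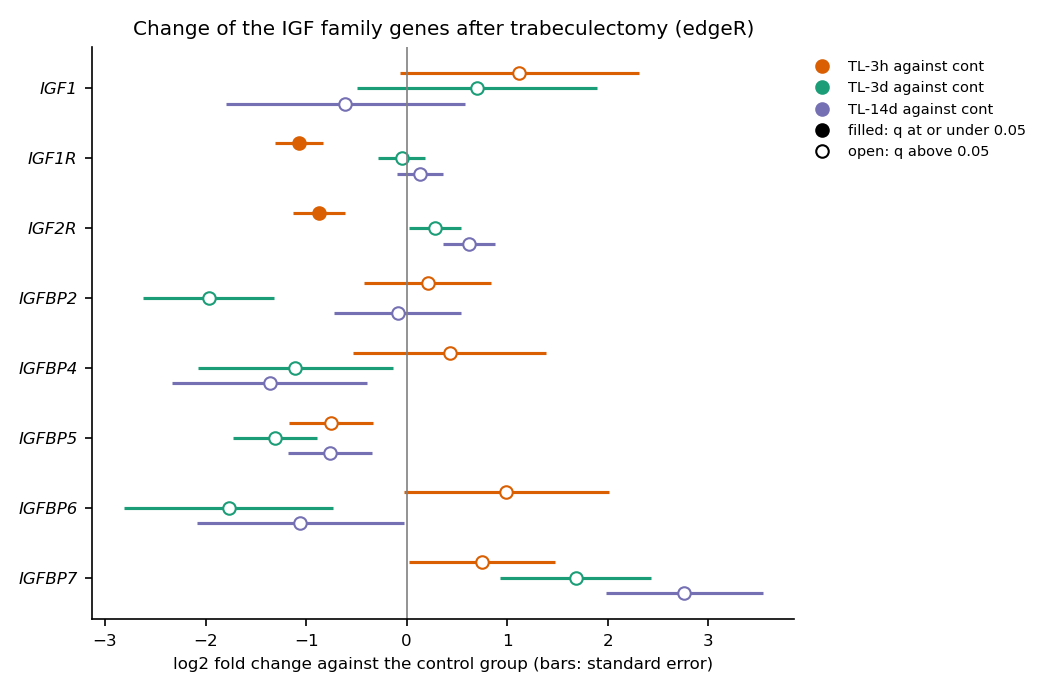
Log2 fold change of each IGF family gene at each of the 3 times against the control group, from edgeR, with standard errors as bars. Filled points have q at or under 0.05 and open points do not. The filled points are IGF1R and IGF2R at 3 hours, at -1.07 and -0.87, and the IGFBP7 points lie at 0.75, 1.68 and 2.76.

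At 3 days the question was whether these levels returned or other members moved. Of the 8 members, 0 passed the threshold against cont in edgeR, where 3 had an unadjusted p under 0.05 (IGFBP2, IGFBP5 and IGFBP7), and 2 passed in DESeq2 (IGFBP2 and IGFBP5). Over all genes, 17.6% passed in edgeR. Members without overlap between TL-3d and cont numbered 4, IGFBP2 and IGFBP5 lower and IGF2R and IGFBP7 higher, beside 45.5% of all genes (21.7% lower and 23.8% higher). The median log2 fold change was -0.58 over the members and 0.0 over all genes, and the members' median was 0.0 without cont replicate 3 and -1.03 without TL-3d replicate 3.

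Both receptors were back at or above the control range by 3 days. IGF1R was at 241.2, 220.9 and 224.2 CPM in TL-3d, inside the control range, with a log2 difference of -0.05 (SE 0.23, edgeR q = 0.894). IGF2R was at 173.8, 184.6 and 169.2 CPM, above all 3 control libraries, with a log2 difference of 0.28 (SE 0.26, edgeR q = 0.462). Set directly against TL-3h, IGF1R was 2.02-fold higher at 3 days (log2 1.01, SE 0.24, edgeR q = 0.00782) and IGF2R was 2.22-fold higher (log2 1.15, SE 0.26, edgeR q = 0.00685), and both calls held under all 20 alternative settings.

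IGFBP5 was close to uniform in TL-3d, at 1260.2, 1323.4 and 1273.5 CPM against 2695.9 to 3668.2 CPM in cont. All 3 operated libraries lay below all 3 control libraries. The log2 value was -1.31 (SE 0.42), a 2.49-fold difference with an edgeR q of 0.0558. It passed under 5 of 20 alternative settings and its log2 value stayed between -1.42 and -1.22, and without TL-14d replicate 1 the edgeR q was 0.00897, without TL-14d replicate 2 0.0146. The highest q over the 20 settings (edgeR, DESeq2 or limma-trend) was 0.144. IGFBP2 was at 26.21, 76.37 and 140.3 CPM in TL-3d against 228.2 to 468.3 CPM in cont, also without overlap. Its log2 value was -1.97 (SE 0.65, edgeR q = 0.0623), and the edgeR q was 0.0414 without TL-3d replicate 3 and 0.0395 without TL-14d replicate 2. IGFBP2 passed under 4 of 20 alternative settings, and the highest q over them (edgeR, DESeq2 or limma-trend) was 0.166.

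IGFBP7 lay on the other side of the controls, at 89.86, 94.39 and 108.4 CPM in TL-3d against 17.25 to 38.55 CPM in cont. The operated libraries were all higher and close together. The log2 value was 1.68 (SE 0.75, a 3.21-fold difference, edgeR q = 0.134), and the edgeR q was 0.00966 without TL-14d replicate 1, whose IGFBP7 level of 20.47 CPM stood far below the 409.5 CPM of replicate 2 in its own group. IGFBP7 passed under 3 of 20 alternative settings, and the highest q over them (edgeR, DESeq2 or limma-trend) was 0.31. Macrophage markers were high in the same libraries: 5 of 8 listed genes had a row, and their summed CPM was 94.53 to 789.1 in cont and 1225.9 to 1979.8 in TL-3d. CD68 and CSF1R passed the threshold, while CD163 (edgeR q = 0.0636), MRC1 (edgeR q = 0.118) and C1QC (log2 0.05, edgeR q = 0.965) did not. Of the 2 corneal epithelium keratins KRT3 passed the threshold, at 53.45 to 82.9 CPM in cont and 288.5 to 317.3 CPM in TL-3d, while KRT12 was at 0.6772 to 4.677 and 1.149 to 5.321 CPM (log2 0.44, edgeR q = 0.847). Of the 4 conjunctival epithelium genes with a row KRT5 alone passed (log2 1.86, edgeR q = 0.0291). The neutrophil sum was 3.275 to 78.58 CPM in cont and 118.6 to 722.4 CPM in TL-3d, with S100A12 past the threshold (edgeR q = 0.0474) and the other 4 genes not. The endothelium sum was 63.7 to 275.3 CPM in cont and 294.3 to 548.5 CPM in TL-3d, with 0 of 5 genes past the threshold. The part of any of these cell types in the IGFBP7 value was not tested.

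The remaining members spread widely within TL-3d. IGF1 was at 23.86, 38.8 and 196.3 CPM (log2 0.70 against cont, SE 1.19, edgeR q = 0.704). IGFBP4 was at 47.82, 46.31 and 297.9 CPM (log2 -1.11, SE 0.97, edgeR q = 0.434). IGFBP6 was at 6.246, 35.84 and 192.5 CPM, a span of 30.82-fold (log2 -1.77, SE 1.04, edgeR q = 0.245). Replicate 3 was the highest for each of these 3 genes, and it also held the highest fibroblast sum of the group, 64684.6 CPM against 1328.4 in replicate 1. It was also the highest of TL-3d for the smooth muscle and pericyte sum (888.4 CPM against 60.06 in replicate 1), the skeletal muscle sum (345.6 against 0.9993), the adipocyte sum (142.3 against 22.51) and the endothelium sum (548.5 against 294.3), and the lowest for the conjunctival epithelium sum (5961.6 against 15900.6). Among the controls, replicate 2 held the highest skeletal muscle sum, 369.6 CPM against 29.79 and 18.51 in replicates 1 and 3. Without TL-3d replicate 3 the value of IGF1 turned to -0.76 (edgeR q = 0.691) and the value of IGFBP6 was -3.66 (edgeR q = 0.0454), whereas without cont replicate 3 the value of IGFBP6 was -0.95, with no call. In the same group IGF1R, IGF2R, IGFBP5 and IGFBP7 spanned only 1.092-, 1.091-, 1.05- and 1.206-fold, while IGFBP2 spanned 5.354-fold. IGF1, IGFBP2, IGFBP6 and IGFBP7 took the same library order as the fibroblast sum in TL-3d. The part of these cell types in the spreads was not tested.

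**Figure D3:**
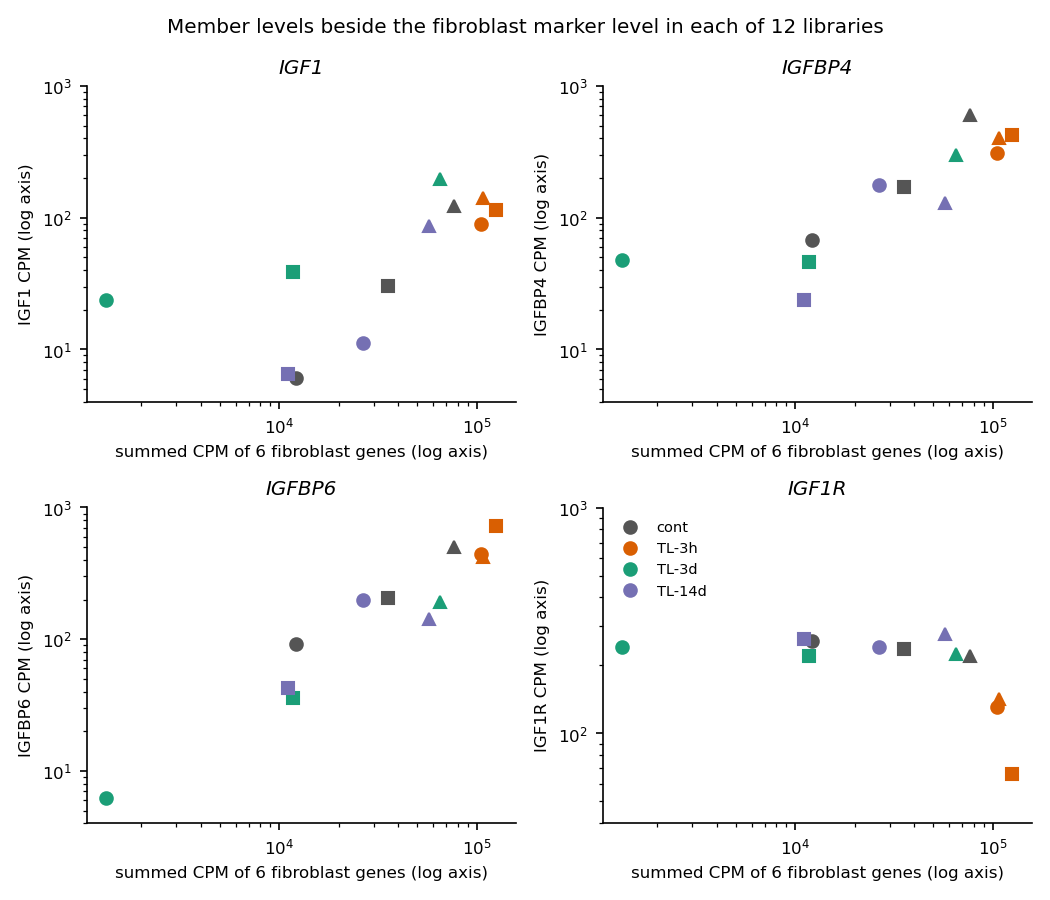
CPM of IGF1, IGFBP4, IGFBP6 and IGF1R against the summed CPM of 6 fibroblast genes in 12 libraries, both on log axes; colours are groups and symbols are replicates. The library with the lowest fibroblast sum, TL-3d replicate 1, holds the lowest IGFBP6 level, 6.246 CPM, and the IGF1R points of the 9 libraries outside TL-3h stay between 220.0 and 276.2 CPM over fibroblast sums of 1328.4 to 76286.5 CPM.

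The step from 3 hours to 3 days was tested directly. In the comparison of TL-3d with TL-3h, 3 of 8 members passed the threshold, beside 37.3% of all genes (18.4% higher and 19.0% lower), and 7 of 8 did not overlap, beside 54.7% of all genes. IGF1 was the member whose libraries overlapped. Besides the rise of both receptors, IGFBP2 fell 4.54-fold, from 524.3, 269.1 and 308.2 CPM in TL-3h to 26.21, 76.37 and 140.3 CPM in TL-3d (log2 -2.18, SE 0.66, edgeR q = 0.0257). This call was lost without TL-3h replicate 1 (edgeR q = 0.0828), TL-3d replicate 1 (edgeR q = 0.0634) or TL-3d replicate 2 (edgeR q = 0.0816). IGFBP6 had the widest difference of the family, from 418.4 to 722.7 CPM down to 6.246 to 192.5 CPM, and missed the threshold (log2 -2.75, SE 1.08, edgeR q = 0.0694). It passed in DESeq2 (q = 0.0118) and in limma-trend (q = 0.0185). Without TL-3d replicate 3 it passed in edgeR (log2 -4.65, q = 0.0115), as did IGFBP4 (log2 -3.01, edgeR q = 0.0479), which was at -1.54 (SE 0.98, edgeR q = 0.239) with all libraries. IGFBP5 and IGFBP7 gave log2 values of -0.57 (SE 0.41, edgeR q = 0.305) and 0.93 (SE 0.73, edgeR q = 0.345), and IGFBP7 passed when the libraries of these groups were fitted alone (edgeR q = 0.00493). The fibroblast sum also differed without overlap, at 105042.3 to 125552.6 CPM in TL-3h and 1328.4 to 64684.6 CPM in TL-3d, with the same library order as IGF1, IGFBP2, IGFBP6 and IGFBP7 in TL-3d. The neutrophil, endothelium and Schwann cell sums were also lower in TL-3d without overlap. Higher without overlap were the macrophage sum (612.3 to 895.6 CPM in TL-3h and 1225.9 to 1979.8 in TL-3d) and the corneal epithelium sum (21.82 to 44.47 and 293.8 to 320.8 CPM). The part of any of these in the member values was not tested. The TL-3h libraries enter both this comparison and that with cont, and with scaling by library size alone the median of all genes moved from -0.05 to 0.43 and the share of rises among the called genes went from 49.2% to 80.5%.

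At 14 days most members spread widely between the bleb libraries. No gene passed the threshold against cont in edgeR (0 of 14835, 0.0%), where 1538 genes had an unadjusted p under 0.05, while 367 passed in DESeq2. Accordingly 0 of 8 members passed in edgeR, IGFBP7 and IGF2R had an unadjusted p under 0.05, and IGFBP7 passed in DESeq2. Members without overlap numbered 0 of 8, beside 11.1% of all genes.

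IGFBP7 was at 20.47, 409.5 and 188.6 CPM in TL-14d, against 17.25 to 38.55 CPM in cont. Replicate 1 lay among the controls, and the other libraries lay above every library of the other groups. The log2 value was 2.76 (SE 0.78, a 6.79-fold difference, edgeR q = 0.346). IGFBP5 ran the other way, at 3321.0 CPM in replicate 1, within the control range, and at 769.8 and 1587.5 CPM in replicates 2 and 3, below it (log2 -0.76, SE 0.42, edgeR q = 0.563). IGF2R was at 128.2, 311.1 and 227.5 CPM, with replicate 1 again inside the control range of 123.7 to 161.2 CPM and the others above it (log2 0.62, SE 0.26, edgeR q = 0.459). For these 3 genes TL-14d replicate 1 lay in or beside the control range. The sum of KRT3 and KRT12 differed between the same libraries, at 84.59, 795.1 and 232.9 CPM in replicates 1, 2 and 3. Replicate 1 was also lowest for the neutrophil sum (3.026, 80.91 and 99.97 CPM), the macrophage sum (139.4, 323.7 and 280.5 CPM) and the smooth muscle and pericyte sum. It was highest for the skeletal muscle sum (55.24, 1.956 and 2.702 CPM), and between the others for the fibroblast and endothelium sums. The part of any of these in the member values was not tested. Without TL-14d replicate 1, 716 genes and 3 members passed in edgeR, IGFBP7 at a log2 value of 3.30 (q = 0.0054), IGFBP5 at -1.44 (q = 0.0351) and IGF2R at 0.89 (q = 0.0231). That setting leaves TL-14d with 2 libraries. Without TL-14d replicate 2, the highest for IGFBP7, its log2 value was 1.78, with no call.

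IGF1R varied little at 14 days, at 241.5, 262.0 and 276.2 CPM (log2 0.13 against cont, SE 0.23, edgeR q = 0.868). IGF1 was at 11.23, 6.548 and 86.92 CPM (log2 -0.61, SE 1.19, edgeR q = 0.88), IGFBP4 at 176.9, 23.72 and 128.8 CPM (log2 -1.36, SE 0.97, edgeR q = 0.645) and IGFBP6 at 198.1, 42.47 and 143.4 CPM (log2 -1.06, SE 1.03, edgeR q = 0.743). IGFBP2 was at 453.5, 105.2 and 338.4 CPM (log2 -0.09, SE 0.63, edgeR q = 0.973). All 4 of these overlapped with cont. Without cont replicate 3 the values of IGFBP4 and IGFBP6 were -0.12 and -0.23. Against TL-3d, 0 of 8 members passed in edgeR, beside 2.24% of all genes, and IGFBP2 alone had an unadjusted p under 0.05 (log2 1.88, SE 0.65, edgeR q = 0.135) and passed in DESeq2. IGF1R was the 1 member of 8 without overlap in that comparison (log2 0.18, SE 0.23, edgeR q = 0.679), beside 27.4% of all genes.

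The make-up of the binding protein transcripts was followed as the share of each of the 5 measured IGFBPs in their summed FPKM, a ratio within a library that does not depend on its scaling. The sum itself was 792.1 to 1777.2 FPKM in cont, 916.1 to 1176.9 in TL-3h, 439.3 to 870.8 in TL-3d and 1106.3 to 1215.7 in TL-14d. Unlike the shares, these sums depend on the scaling. They carry no TMM adjustment, so that no comparison between groups is drawn from them. IGFBP5 held 53.6%, 47.3% and 30.6% of the cont libraries and 19.9%, 20.9% and 20.5% of the TL-3h libraries, without overlap, and at 3 days it was at 45.2%, 39.5% and 22.2%, overlapping with cont. IGFBP6 held 12.6%, 21.0% and 28.8% in cont and 33.5%, 46.3% and 36.0% in TL-3h, also without overlap, and 1.55%, 7.39% and 23.2% in TL-3d. IGFBP2 held 24.7%, 16.2% and 19.0% in cont and 4.56%, 11.1% and 11.9% in TL-3d, again without overlap, and IGFBP4 overlapped with cont at each time. IGFBP7 held 4.55%, 6.87% and 4.27% in cont, 7.15%, 7.22% and 7.55% in TL-3h and 42.8%, 37.3% and 25.0% in TL-3d, so that each group lay above the one before it. The IGFBP7 shares in TL-14d were 3.5%, 76.6% and 34.9%, from the lowest to the highest of the series. Each difference without overlap from cont had a two-sided exact permutation p of 0.1, the smallest that 3 against 3 libraries can give, and an adjusted p of 0.3 over the 15 tests of this family. The ratio of IGFBP7 to IGFBP5 in FPKM was 0.0849 to 0.145 in cont, 0.345 to 0.369 in TL-3h and 0.946 to 1.13 in TL-3d, and 0.0817, 7.06 and 1.58 in TL-14d.

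**Figure D4:**
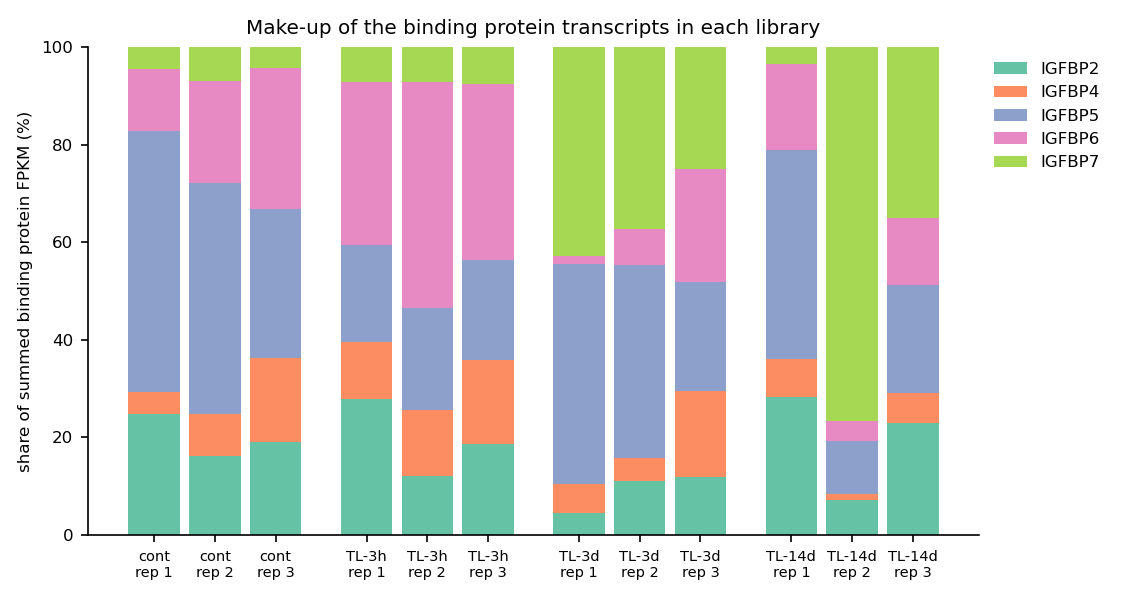
Share of IGFBP2, IGFBP4, IGFBP5, IGFBP6 and IGFBP7 in their summed FPKM, in percent, as 1 stacked bar per library. IGFBP5 takes 30.6% to 53.6% of the cont bars and 19.9% to 20.9% of the TL-3h bars, and IGFBP7 takes 25.0% to 42.8% of the TL-3d bars.

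Transcript models of IGF1 and IGF1R were read from the transcript table, whose values are also estimated counts. Of the 26082 transcripts tested, 28.3% passed at 3 hours, and of the 9 tested models of both genes 3 passed, 2 of IGF1R and 1 of IGF1. Both IGF1R models that make up most of the gene fell together, XM_017337784.1 by 1.13 (SE 0.23, edgeR q = 0.00548) and XM_017337786.1 by 1.07 (SE 0.25, edgeR q = 0.0102) on the log2 scale. The first held 70.4% to 72.4% of the IGF1R counts in cont and 69.2% to 73.3% in TL-3h, so that the shares overlapped while the level fell.

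For IGF1, the model XM_008256719.2 carried 60.4% to 88.3% of the gene's counts in every library. The model XM_017341617.1 was listed at 0 in all 3 cont libraries and at counts of 236, 131 and 338 in TL-3h, which is 9.2%, 4.24% and 7.85% of the gene (edgeR q = 0.0194). It held 10, 33 and 205 counts in TL-3d (edgeR q = 0.0843) and 0, 0 and 36 in TL-14d. The control library with the most IGF1, replicate 3 with a gene count of 4899, was listed at 0 too, above the gene counts of 2333 to 3871 in TL-3h. A zero in this table can be a failed estimate between overlapping models, so that it is given only as listed. A further model, XM_008256717.2, was listed at 10, 14 and 25 counts in TL-3d and at 0 in all cont and TL-3h libraries (edgeR q = 0.161 at 3 days), and at 19, 0 and 0 counts in TL-14d, the first being 4.96% of the gene in that library. Over all transcripts 5.13% passed at 3 days and 0.0% at 14 days in edgeR, and of these models 0 passed at either time, while DESeq2 passed 1 at 3 days and 0 at 14 days.

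**Figure D5:**
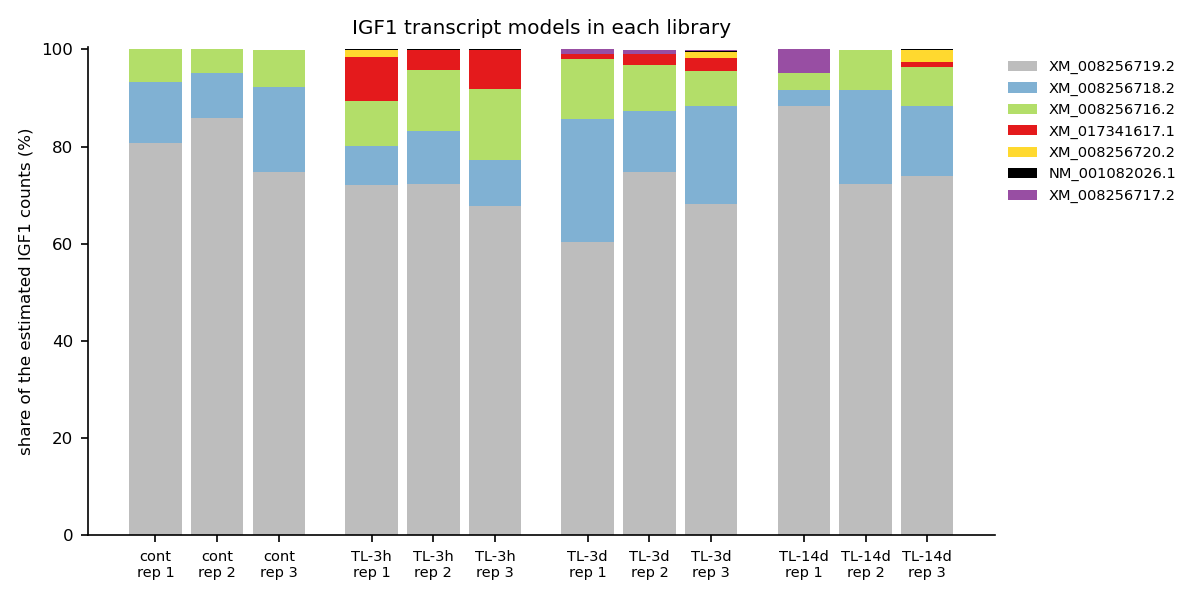
Share of each of 7 IGF1 transcript models in the estimated counts of the gene, in percent, as 1 stacked bar per library. XM_017341617.1, in red, takes 4.24% to 9.2% of the TL-3h bars, 0.884% to 2.66% of the TL-3d bars and none of the cont bars.

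The wider pathway was described by 49 listed genes, of which 43 had a row and 39 were tested. At 3 hours 8 were higher, 8 were lower and 23 did not pass, with a median log2 fold change of 0.04, so that 16 of 39 passed beside 45.4% of all genes. At 3 days 3 were higher, 3 were lower and 33 did not pass, 6 of 39 beside 17.6% of all genes, and at 14 days 0 of 39 passed in edgeR, beside 0.0% of all genes. IGFBP1, INS and IRS4 were at a count of 0 in all 12 libraries. IGF2BP1 reached at most 20 counts. IGFALS, PIK3R2, PIK3R3, AKT1, RPTOR and STAT5A are not analysed here.

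Outside the cell, the enzyme and its inhibitor rose together at 3 hours. PAPPA, the metalloprotease that cuts IGFBP4, was at 1.638, 2.276 and 4.239 CPM in cont and at 9.533, 32.86 and 21.7 CPM in TL-3h. All TL-3h libraries were higher (7.85-fold, log2 2.97, SE 0.82, edgeR q = 0.0139), although the edgeR q was 0.056 without cont replicate 1 and 0.0531 without cont replicate 2. STC1, a stanniocalcin that inhibits PAPPA, was at 9.826, 15.78 and 32.86 CPM in cont and at 113.8, 197.3 and 154.7 CPM in TL-3h, a rise of 7.97-fold (log2 2.99, SE 0.65, edgeR q = 0.004). At 3 days STC1 was at 13.36 to 21.57 CPM, inside the control range, whereas PAPPA was at 5.771, 13.03 and 18.07 CPM, above all control libraries without passing the test. Of the 6 proteases and inhibitors listed, these 2 were past the threshold at 3 hours, beside 45.4% of all genes, and 0 at 3 days, beside 17.6%.

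At 3 hours 1 of 4 tested genes among the other receptors, hormones and carriers was lower and 0 were higher. Of 4 tested genes of the growth hormone axis, which includes GHR, 1 was lower and 1 was higher. Of 7 tested adaptors 2 were higher and 2 were lower. These counts stand beside 45.4% of all genes called and 22.2% called lower. INSR, the insulin receptor and closest relative of IGF1R, fell from 87.66 to 109.6 CPM in cont to 26.43 to 52.79 CPM in TL-3h (2.49-fold, log2 -1.32, SE 0.30, edgeR q = 0.00525). GHR, the growth hormone receptor, fell from 51.88 to 98.68 CPM to 25.14 to 38.52 CPM (2.05-fold, log2 -1.03, SE 0.33, edgeR q = 0.026), and this call was lost without cont replicate 3 (edgeR q = 0.0794) or TL-3h replicate 1 (edgeR q = 0.0757).

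Among the adaptors, IRS1, which links these receptors to PI3 kinase, rose 2.68-fold (log2 1.42, edgeR q = 0.0356), with 24.11 to 44.1 CPM in cont and 71.38 to 101.7 CPM in TL-3h. This call was lost in 6 of the 12 fits without 1 library, namely without cont replicate 1 or 2, any TL-3h library or TL-3d replicate 2, with edgeR q from 0.0513 to 0.117, and with scaling by library size alone (log2 0.94, edgeR q = 0.125). SHC1, the adaptor to the RAS branch, rose 2.30-fold at 3 hours (log2 1.20, edgeR q = 0.000635) and 1.67-fold at 3 days (log2 0.74, edgeR q = 0.0263). GRB14, an inhibitor of the insulin receptor that was low throughout, fell from 0.9493 to 1.776 CPM to 0.1463 to 0.346 CPM at 3 hours (log2 -2.41, edgeR q = 0.00502), and at 3 days it was at 0.3695 to 0.4838 CPM (log2 -1.74, edgeR q = 0.0448). A count of 3 corresponded to 0.11 to 0.124 CPM in TL-3h, so that the lowest GRB14 value there was near the limit of detection. The other adaptor that passed as lower at 3 hours was SOS1 (log2 -0.59, edgeR q = 0.00494). Outside the adaptors, 1 of 7 tested PI3 kinase and AKT genes passed at 3 hours, beside 45.4% of all genes. This was PIK3R1, a regulatory subunit of PI3 kinase, which fell 2.30-fold (log2 -1.20, edgeR q = 0.00354).

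Downstream, JAK2, the kinase of the growth hormone receptor, rose from 43.65 to 58.34 CPM in cont to 156.2 to 174.8 CPM in TL-3h (3.29-fold, log2 1.72, SE 0.15, edgeR q = 3.99e-05). It was still higher at 3 days, at 75.82 to 81.39 CPM (1.59-fold, edgeR q = 0.0174), and at 36.98 to 50.78 CPM in TL-14d. EIF4EBP1, a repressor of translation that mTOR switches off, rose 4.85-fold at 3 hours (log2 2.28, edgeR q = 0.000615) and 2.19-fold at 3 days (log2 1.13, edgeR q = 0.0449). TSC1, an upstream inhibitor of mTOR, fell 1.57-fold at 3 hours (log2 -0.65, edgeR q = 0.00864).

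The FOXO factors are transcription factors that AKT keeps out of the nucleus. Of the 3 listed, 1 passed at 3 hours and 2 passed at 3 days, all as lower, beside 45.4% (22.2% lower) and 17.6% of all genes. FOXO4 fell 1.71-fold at 3 hours (log2 -0.78, edgeR q = 0.0448) and 1.92-fold at 3 days (log2 -0.94, edgeR q = 0.0456), and FOXO3 fell 2.09-fold at 3 days (log2 -1.07, edgeR q = 0.0244). FOXO1 had log2 values of 0.45 at 3 hours (edgeR q = 0.434) and -0.50 at 3 days (edgeR q = 0.431) and overlapped with cont at both times. The FOXO4 call at 3 hours was lost without cont replicate 1 or 2, TL-3h replicate 2 or 3, any TL-3d library or TL-14d replicate 3, with edgeR q from 0.0539 to 0.122. At 3 days the calls of SHC1, JAK2, EIF4EBP1, GRB14, FOXO3 and FOXO4 were all lost without cont replicate 1, TL-3d replicate 1 or TL-3d replicate 2, with edgeR q from 0.052 to 0.144, and some of them were lost without cont replicate 2 or 3, TL-3d replicate 3, any TL-3h library or TL-14d replicate 3. With the libraries of these 2 groups fitted alone, EIF4EBP1 (edgeR q = 0.0783) and FOXO3 (edgeR q = 0.0506) did not pass at 3 days. Without the filter on low counts, EIF4EBP1 (edgeR q = 0.052), FOXO4 (edgeR q = 0.0519) and GRB14 (edgeR q = 0.0584) did not.

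The genes whose log2 CPM over the 12 libraries was most like each member were ranked by Pearson's r over 13252 genes, as a description in which the libraries share their groups and stromal content. Nearest to IGF1 were ABCC9 (r = 0.982), LOC100358765 (0.968) and PTPRB (0.960). IGFBP6 was nearest to OLFML1 (0.992), PCOLCE2 (0.987) and MFAP5 (0.987), genes of the extracellular matrix. IGFBP4 was nearest to RECK (0.971), FYN (0.971) and TGFBR3 (0.968), IGFBP2 to PAM (0.953), CYGB (0.944) and ARHGEF25 (0.944), and IGFBP5 to PET117 (0.932), PKIG (0.927) and ADD3 (0.924). IGFBP7 was nearest to BAMBI (0.982), CRABP2 (0.974) and UNC5B (0.966). Of the receptors, IGF1R was nearest to SPATS2 (0.986), ARHGAP12 (0.979) and CELSR1 (0.977), and IGF2R to TCF7 (0.976), ROBO2 (0.966) and CUX1 (0.963). No member was among the 3 nearest genes of another. Within the family, r was 0.89 between IGFBP2 and IGFBP6, 0.87 between IGFBP4 and IGFBP6, 0.79 between IGF1R and IGF2R, 0.77 between IGF1 and IGFBP4, -0.79 between IGF2R and IGFBP4 and -0.86 between IGFBP5 and IGFBP7, over the same 12 libraries. The neighbouring genes IGFBP2 and IGFBP5 had an r of 0.63.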

How the data were processed

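Conjunctival RNA of 12 libraries was analysed, with groups taken from the sample labels. The authors made stranded mRNA libraries and, per the processing notes of the labels, mapped reads with STAR 2.6.0c to OryCun2.0. The authors deposited estimated counts per gene and per transcript (not scaled; 23.4% of gene values and 55.4% of transcript values fractional). The authors also deposited FPKM values per gene, scaled for the length of the transcript and for depth. How shared reads were split is not given in the sources used here.

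Estimated counts were rounded to whole numbers. Genes were kept by filterByExpr (minimum count 10, minimum total 15) and tested with edgeR 4.0.16 (TMM, quasi-likelihood test) in R 4.3.3 over all 12 libraries in 1 fit, without covariates. The fit was tested on simulated data. DESeq2 1.42.0, limma 3.58.1, other scalings, no filter, smaller sets of libraries and each library left out were alternatives; those for pathway genes were added after the data were seen. FPKM, which carry no TMM adjustment, served to compare levels between genes and for the shares, ratio and sums of the binding proteins. Depth was 27111348 to 38591425 counts per library, each group had 3 libraries, and the floor of 3 counts covers counting error only.

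The members and the pathway and marker lists were chosen with earlier results of these data known. All members are named, with the up to 6 pathway genes past the threshold that changed most each way against cont, and the 3 most similar genes of each member (mean of at least 1 CPM, prior count 2). SHC1, JAK2 and others named by both times count for both. Libraries of 1 group were checked for duplicates by a chi-square comparison, with none found (lowest mean 80.9 per gene). No genome or sequence table of OryCun2.0 was used here, so no sequences are shown.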

Additional observations from a re-analysis of the deposited data

Results flagged for a closer look

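The effect at 3 days minus that at 3 hours is the comparison of TL-3d with TL-3h given above, because the shared control libraries cancel. It is therefore the same test and no further support. It passed in edgeR for 3 of 8 members and for 8 of 39 pathway genes (1 higher and 7 lower), beside 37.3% of all genes. The members and the named pathway genes among them follow. The effect at 3 days minus that at 3 hours was 1.01 on the log2 scale for IGF1R (q = 0.00782), 1.15 for IGF2R (q = 0.00685) and -2.18 for IGFBP2 (q = 0.0257). It was -1.15 for EIF4EBP1 (q = 0.023), -1.04 for JAK2 (q = 0.000454) and -3.13 for STC1 (q = 0.00418). The effect at 14 days minus that at 3 days was -0.85 for JAK2 (edgeR q = 0.0263).

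For 3 members every library of TL-3h lay on one side of the control mean and every library of TL-14d on the other, and the difference between these effects was not tested. The same held for 11.7% of all genes tested. Around the control mean of 237.1 CPM, IGF1R was at 66.3 to 142.1 CPM in TL-3h and at 241.5 to 276.2 CPM in TL-14d. Around 281.8 CPM, IGFBP4 was at 309.4 to 426.1 CPM and then at 23.72 to 176.9 CPM, while the control libraries themselves ran from 67.21 to 607.6 CPM. Around 266.2 CPM, IGFBP6 was at 418.4 to 722.7 CPM and then at 42.47 to 198.1 CPM, with control libraries from 91.71 to 500.1 CPM.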

How the results depend on the processing

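All members had counts far above the floor of 3, each group held 3 libraries, and which of these limits the calls was not tested. The calls of IGF1R at 3 hours, and of IGF1R and IGF2R between 3 hours and 3 days, held under all 20 alternatives. Of all values recomputed with other tools, scalings, filters or library sets, 429 kept direction and side of the threshold, 20 gained a call, 8 lost one and 7 reversed, and of those without 1 library the numbers were 607, 13, 63 and 13. Where a call changed, the cause was not tested.

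DESeq2 passed 4471 genes and 2 members (IGFBP2 and IGFBP5) at 3 days where edgeR passed 2608 and 0, 367 genes and 1 member (IGFBP7) at 14 days where edgeR passed 0 and 0, 1850 genes and 1 member (IGFBP2) for TL-14d against TL-3d where edgeR passed 332 and 0, and 1 transcript model at 3 days where edgeR passed 0. At 3 hours 3 members passed with library size scaling and with the libraries compared alone, IGFBP5 being the one added to the 2. At 3 days limma-trend passed 1 member, the 6 libraries compared alone passed 2, and a fit without cont replicate 3 and TL-14d replicate 1, which stood apart in earlier results, passed 2. The last fit passed 999 genes and 3 members at 14 days. The libraries compared alone passed 15 genes for TL-14d against TL-3d.

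With library size scaling the log2 values of IGFBP2 and IGFBP4 at 3 hours reversed to -0.27 and -0.02 and that of IGF1 for TL-3d against TL-3h to 0.03. In the fit over 10 libraries IGFBP4 at 3 days reversed to 0.12, IGF1 at 14 days to 1.35 and IGFBP5 for TL-14d against TL-3d to -0.12. None of these had a call.

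Values without 1 library crossed 0 for members with no call. At 3 hours they ran from -0.18 to 0.54 for IGFBP2 and from -0.04 to 1.63 for IGFBP4. At 3 days they ran from -0.76 to 2.23 for IGF1, from -0.12 to 0.01 for IGF1R and from -2.58 to 0.12 for IGFBP4, and at 14 days from -2.58 to 0.93 for IGF1 and from -0.52 to 0.32 for IGFBP2. For TL-3d against TL-3h IGF1 ran from -1.88 to 0.03, and for TL-14d against TL-3d IGF1 ran from -3.28 to 0.15, IGFBP4 from -0.78 to 1.22 and IGFBP5 from -0.13 to 0.93.

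Without 1 library, 5280 to 7271 genes and 1 to 3 members passed at 3 hours, 359 to 3778 genes and 0 to 2 members at 3 days, 0 to 716 genes and 0 to 3 members at 14 days, 3954 to 6231 genes and 2 to 5 members for TL-3d against TL-3h, and 0 to 584 genes and 0 members for TL-14d against TL-3d.

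The replicate numbers were treated as names only, because the labels tie no number to an animal or batch and not every same-numbered pair correlated above 0.1. The correlations ran from -0.17 to 0.5 over 18 pairs, and 7 of 12 libraries were closest to their own number, which is a hint from the data and not the design. With the replicate block 6946, 2719, 0, 5831 and 288 genes passed in the 5 comparisons and 3, 0, 0, 4 and 0 members. Under the block IGF1 passed at 3 hours (log2 2.08, edgeR q = 0.0367) and IGFBP6 for TL-3d against TL-3h (log2 -3.53, edgeR q = 0.0355), the calls of IRS1 at 3 hours (edgeR q = 0.0587) and GRB14 at 3 days (edgeR q = 0.056) were lost, and the value of IGFBP4 for TL-14d against TL-3d reversed to 0.20. The block passed 4 transcript models at 3 hours.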
